A study of Mus musculus with 30 samples.

Results

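The genes described here belong to the circadian clock. *Arntl* (also called Bmal1), *Clock* and *Npas2* encode its transcriptional activators, and the other 7 are driven by them or act at the clock's output: the PAR bZIP factors *Dbp*, *Tef* and *Hlf*, the repressors *Ciart*, *Per1* and *Bhlhe41*, and the deubiquitinase gene *Usp2*. They were chosen by gene symbol and are 10 of the 46078 genes in the table of counts. All 10 were among the 16261 genes that passed the filter on low counts, *Hlf* and *Bhlhe41* at the edge of detection.

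RNA came from the epithelial layer scraped off the colon of wild-type C57BL/6J mice, which were 5 to 10 weeks old at the start. In each sex, vehicle mice given saline and killed at 9 weeks were set beside mice given AOM/DSS and killed at 9 or at 15 weeks, with 5 mice and 5 libraries in each of the 6 groups. The carcinogen azoxymethane (AOM) was injected at 10 mg/kg, and dextran sulfate sodium (DSS), which irritates the colon, was given at 2.5% in the drinking water in 3 cycles. No vehicle group of 15 weeks was analysed here, so at 15 weeks treatment and time cannot be told apart, and the clock time at which the mice were killed is not given in the sources used here.

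The libraries held between 9265804 and 30806392 counts (median 24697064). Markers of epithelium (10 genes) summed to 13500 CPM or more in every library, where CPM is a gene's count relative to the library's TMM-scaled total (TMM, trimmed mean of M values, sets the scale between libraries). Markers of smooth muscle (7 genes) summed to 5320 CPM in male vehicle replicate 1 and to at most 208 CPM in the other libraries. A bulk library cannot tell fewer cells of a type from less RNA per cell.

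In the clock of mammalian cells, ARNTL pairs with CLOCK or with its relative NPAS2 and binds E-boxes in the DNA of target genes. Among the targets are the *Per* and *Cry* repressors, *Ciart* and *Bhlhe41*, whose products act back on the activators, and *Dbp*, *Tef* and *Hlf*, whose products bind D-boxes and pass the rhythm on. The nuclear receptors REV-ERB (*Nr1d1*, *Nr1d2*) repress *Arntl* through ROR elements. In many tissues, the intestine included, *Arntl* and *Npas2* transcripts therefore peak at about the opposite time of day to those of *Dbp*, *Tef*, *Ciart* and *Per1*, while *Clock* transcripts cycle weakly.

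These motifs were looked for in the promoter windows that RefSeq gives for GRCm38.p6, each from 250 bases before to 50 bases after a start, on both strands. All 10 genes had an entry, in 15 windows. The E-box CACGTG stood in windows of 4 of the 10 genes, against 8.1% of all 27018 genes in the table. The D-box, spelled TTATGNAA or TTACGNAA, stood in 1 of the 10 (4.67% of all genes) and the ROR element TAGGTCA in 1 of the 10 (2.97% of all genes). The stretches that hold them are shown because they are where the activators and the outputs of this loop could meet their targets by letter, with the motifs in capitals. A match is a description of letters and not of binding. The stretches are *Ciart* at chr3:95882252-95882364 on the minus strand, with 3 E-boxes, *Per1* at chr11:69098763-69098947 on the plus strand, with an E-box and then a D-box, *Bhlhe41* at chr6:145865559-145865593 on the minus strand, *Tef* at chr15:81811256-81811301 and at chr15:81802536-81802561 on the plus strand, and *Arntl* at chr7:113207531-113207557 on the plus strand, with the ROR element. The second *Tef* stretch and the *Arntl* stretch lie in annotated UTRs.
Ciart: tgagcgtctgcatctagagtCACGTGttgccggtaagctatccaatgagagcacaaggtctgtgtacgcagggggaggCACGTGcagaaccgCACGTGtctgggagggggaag
Per1: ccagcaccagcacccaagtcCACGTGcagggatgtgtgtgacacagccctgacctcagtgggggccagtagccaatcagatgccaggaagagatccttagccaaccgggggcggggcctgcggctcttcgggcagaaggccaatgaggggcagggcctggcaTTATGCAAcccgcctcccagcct
Bhlhe41: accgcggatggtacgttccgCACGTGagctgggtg
Tef, first stretch: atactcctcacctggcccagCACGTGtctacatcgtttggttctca
Tef, second stretch: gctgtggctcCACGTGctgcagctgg
Arntl: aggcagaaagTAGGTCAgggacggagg

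Levels were compared between genes in TPM (a share of transcripts), which corrects for length. *Tef* had the highest median over the 30 libraries, 7.91 TPM, followed by *Arntl* at 7.25 TPM, *Clock* at 7.08 TPM, *Dbp* at 4.51 TPM and *Npas2* at 4.29 TPM. *Usp2* (3.29 TPM) and *Per1* (2.55 TPM) came next and *Ciart* was lower at 0.831 TPM. The order of the upper genes was not fixed. *Arntl* lay below *Tef* in 17 of 30 libraries, *Clock* below *Arntl* in 19, *Dbp* below *Clock* in 17 and *Npas2* below *Dbp* in 16, whereas *Ciart* lay below *Per1* in 27. *Bhlhe41* had a median of 0.0395 TPM and *Hlf* of 0 TPM, with counts from 0 to 110 and from 0 to 366, and neither reached a mean of 1 FPKM in any group. TPM was used for this order and for an alternative of the correlations only. The mitochondrial gene *mt-Nd4l* took from 39.2% to 58.1% of all TPM. The 10 genes with the most TPM in a library together took from 61.7% to 88.2%, which moved the TPM of every other gene. Values from here on are CPM unless TPM is named. CPM compare libraries and not genes.

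**Figure D1:**
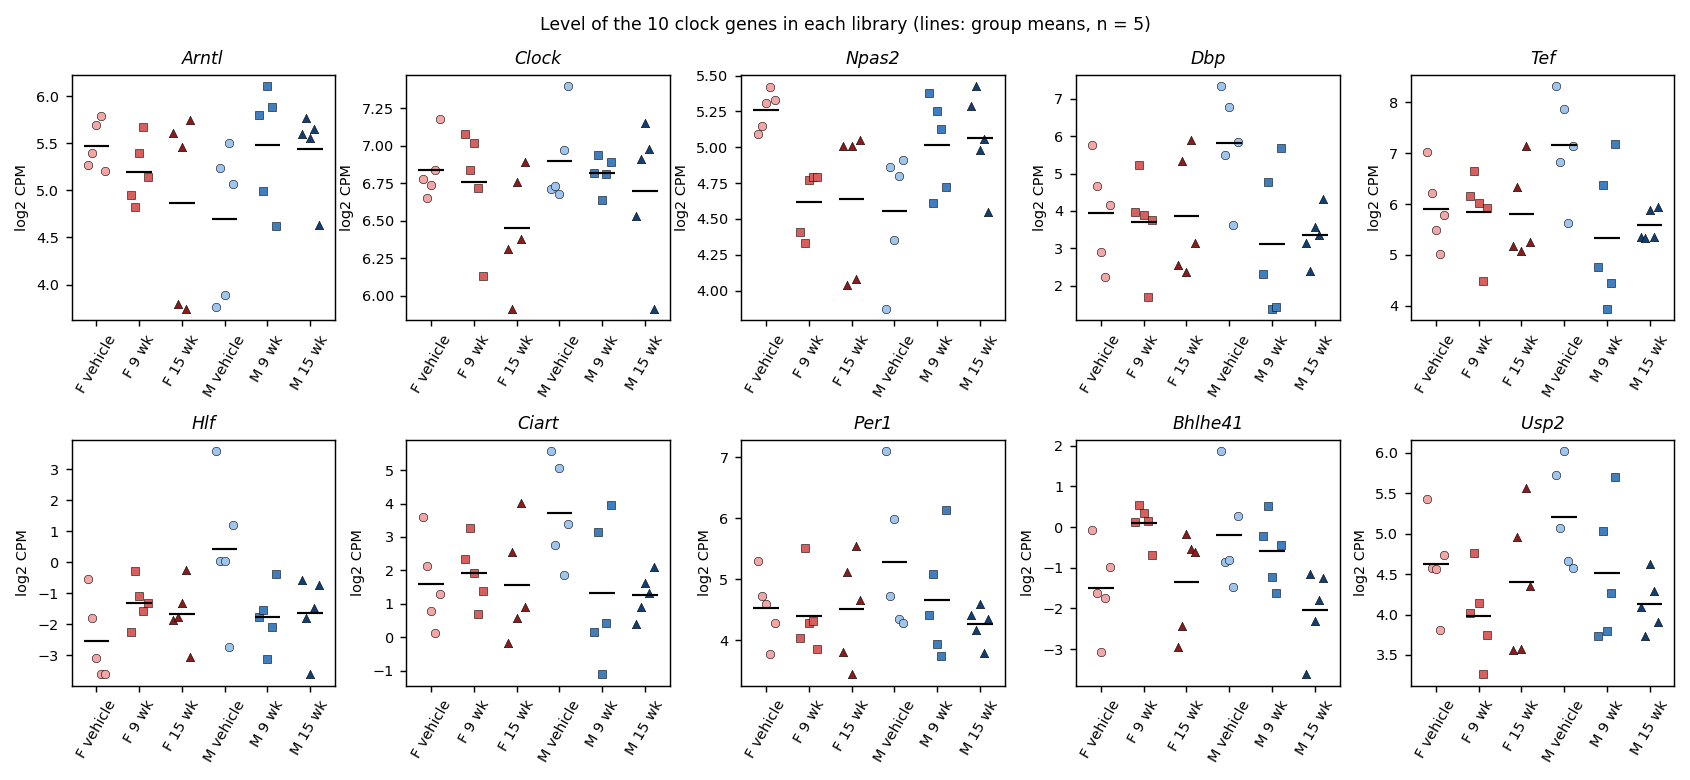
Level of each of the 10 genes in the 30 libraries, as log2 CPM (prior count 2) on the vertical axis and the 6 groups of 5 on the horizontal axis, with points for libraries and a line at each group mean (F, females; M, males; wk, weeks of AOM/DSS). Arntl sat low in 2 male vehicle and 2 female 15-week libraries, and Dbp, Tef and Ciart were highest in male vehicle mice.

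*Arntl* varied widely between mice of the same group. In female vehicle mice it stood at 38.6, 42.1, 51.5, 55.4 and 36.9 CPM in replicates 1 to 5, and in male vehicle mice at 13.5, 37.6, 14.7, 45.3 and 33.6 CPM. At 15 weeks of AOM/DSS it stood at 48.9, 13.7, 43.9, 13.3 and 53.7 CPM in females. Male vehicle replicates 1 and 3 and female 15-week replicates 2 and 4 were the 4 lowest, at 13.3 to 14.7 CPM, and the next library was at 24.5 CPM. The values were 30.8, 28.2, 42.2, 50.9 and 35.1 CPM in females at 9 weeks, 55.6, 31.7, 68.8, 58.9 and 24.5 CPM in males at 9 weeks, and 48.6, 54.4, 46.7, 50.1 and 24.7 CPM in males at 15 weeks. Every group overlapped every other.

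*Npas2*, which can take the place of *Clock* beside *Arntl*, was low in the same 4 libraries, though not by so much. It stood at 14.5 and 20.4 CPM in male vehicle replicates 1 and 3, against 28.9, 27.8 and 29.9 CPM in replicates 2, 4 and 5. In females at 15 weeks it stood at 16.4 and 16.9 CPM in replicates 2 and 4, against 32.2, 32.2 and 33.0 CPM in replicates 1, 3 and 5. Over all libraries *Npas2* ran from 14.5 to 42.9 CPM, and 1 further library, female 9-week replicate 2, lay as low as these 4, at 20.1 CPM. *Clock*, the partner gene with the higher counts, ran from 59.9 CPM to 2.82 times that and followed *Arntl* less closely: it stood at 105 and 102 CPM in male vehicle replicates 1 and 3 and at 59.9 and 83.2 CPM in female 15-week replicates 2 and 4.

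*Dbp*, a PAR bZIP factor, was high where *Arntl* was low. In male vehicle mice it stood at 164, 45.3, 111, 12.2 and 56.9 CPM in replicates 1 to 5, so that replicates 1 and 3, lowest in *Arntl*, were highest in *Dbp*. In females at 15 weeks it stood at 5.80, 40.2, 5.10, 59.1 and 8.69 CPM, again with replicates 2 and 4 above the rest. In males at 9 weeks the values were 4.86, 27.5, 2.50, 2.64 and 50.7 CPM, and the 2 high libraries, replicates 2 and 5, were the 2 lowest in *Arntl*. In the remaining groups the library highest in *Dbp* was also the lowest or the second lowest in *Arntl*. The values were 54.5, 25.4, 7.37, 4.59 and 17.8 CPM in female vehicle mice, 15.5, 37.3, 14.7, 3.15 and 13.3 CPM in females at 9 weeks, and 8.78, 5.18, 11.8, 10.1 and 19.8 CPM in males at 15 weeks, where *Dbp* varied least.

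*Tef* and *Ciart* followed *Dbp*. *Tef* stood at 321, 113, 234, 49.0 and 141 CPM in male vehicle mice, and at 27.0, 82.8, 15.1, 21.6 and 145 CPM in males at 9 weeks. *Ciart*, a repressor of the activators, stood at 47.6, 6.64, 33.0, 3.52 and 10.3 CPM in male vehicle mice and at 1.03, 8.73, 0.382, 1.26 and 15.4 CPM in males at 9 weeks. Its highest value over all libraries was 124 times its lowest, against 65.4 times for *Dbp*, 21.2 times for *Tef*, 12.8 times for *Per1*, 6.85 times for *Usp2*, 5.17 times for *Arntl*, 2.95 times for *Npas2* and 2.82 times for *Clock*. *Hlf*, the third PAR bZIP gene, was at 11.9 CPM in male vehicle replicate 1, at 2.2 CPM or less in the other 29 libraries, and listed at a count of 0 in 3 of them.

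**Figure D2:**
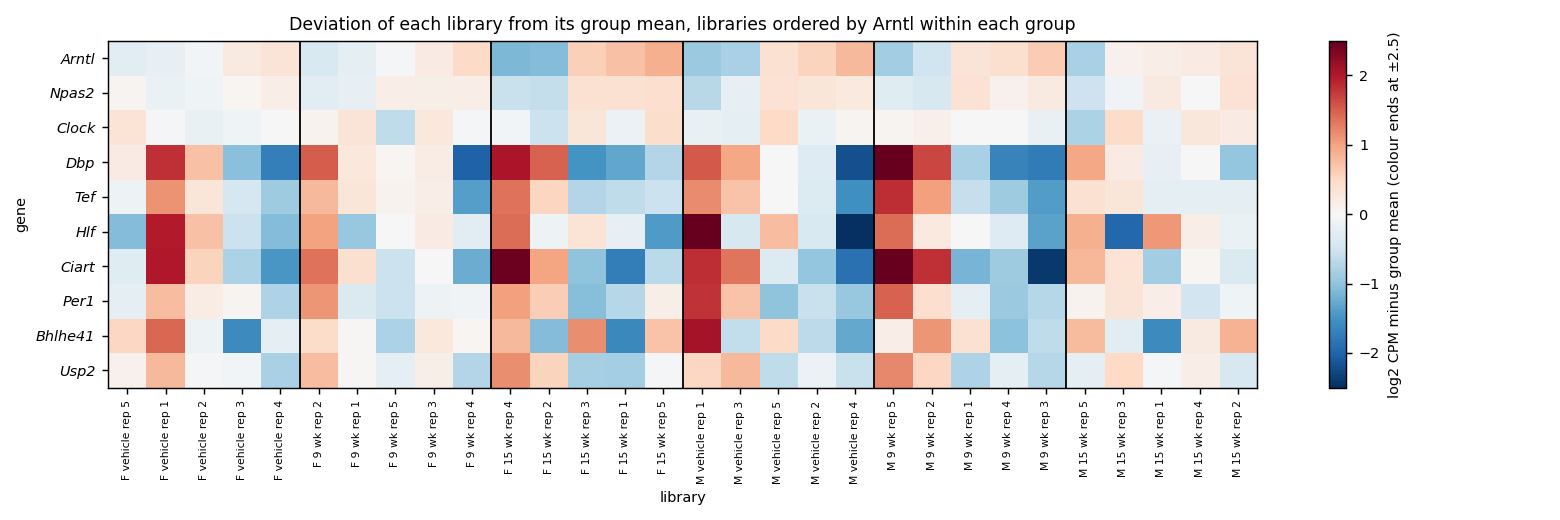
Each library's log2 CPM minus its group mean (colour, ending at 2.5 either way) for the 10 genes (rows) in the 30 libraries (columns), with libraries ordered by Arntl within each group and black lines between groups (F, females; M, males; wk, weeks; rep, replicate). Within groups, Npas2 ran the same way as Arntl, and Dbp, Tef, Ciart, Per1 and Usp2 mostly ran the other way. In males at 15 weeks Usp2 did not (r = 0.203 with Arntl) and Per1 did so weakly (r = -0.245).

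Whether the activators and the outputs moved oppositely was measured over all 30 libraries after the mean of each group was subtracted, so that no difference between groups entered. *Npas2* rose with *Arntl* (Pearson r = 0.921, Spearman rho = 0.903). *Ciart* (r = -0.866, rho = -0.879), *Dbp* (r = -0.863, rho = -0.893) and *Tef* (r = -0.844, rho = -0.896) fell as *Arntl* rose. For each of these 4 the two-sided permutation p was 1e-05, the smallest that 100000 exchanges within groups can give, with an adjusted p of 0.0271 (Benjamini-Hochberg over 16260 genes). The rho values had a permutation p of 1e-05 and an adjusted p of 0.0406.

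Among all 16260 other tested genes, *Npas2* had the highest r with *Arntl*, and *Ciart*, *Dbp* and *Tef* had the 3 lowest. Only 10 genes, 0.0615% of those tested, passed the adjusted threshold, 5 with a positive and 5 with a negative r, and 4 of the 10 are the genes just named. Across the tested genes r had a median of 0.019, a 5th percentile of -0.36 and a 95th percentile of 0.376. *Usp2* (r = -0.777, rho = -0.793) and *Per1* (r = -0.768, rho = -0.755) had the 5th and 6th lowest r, with permutation p of 0.00011 and 0.00012 for r that missed the threshold once adjusted (0.108 for both). *Hlf* (r = -0.557, adjusted permutation p = 0.471), *Clock* (r = 0.397, adjusted permutation p = 0.749) and *Bhlhe41* (r = -0.318, adjusted permutation p = 0.822) did not pass. In all, 9 relations with *Arntl* were computed for these genes, 7 negative and 2 positive.

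**Figure D3:**
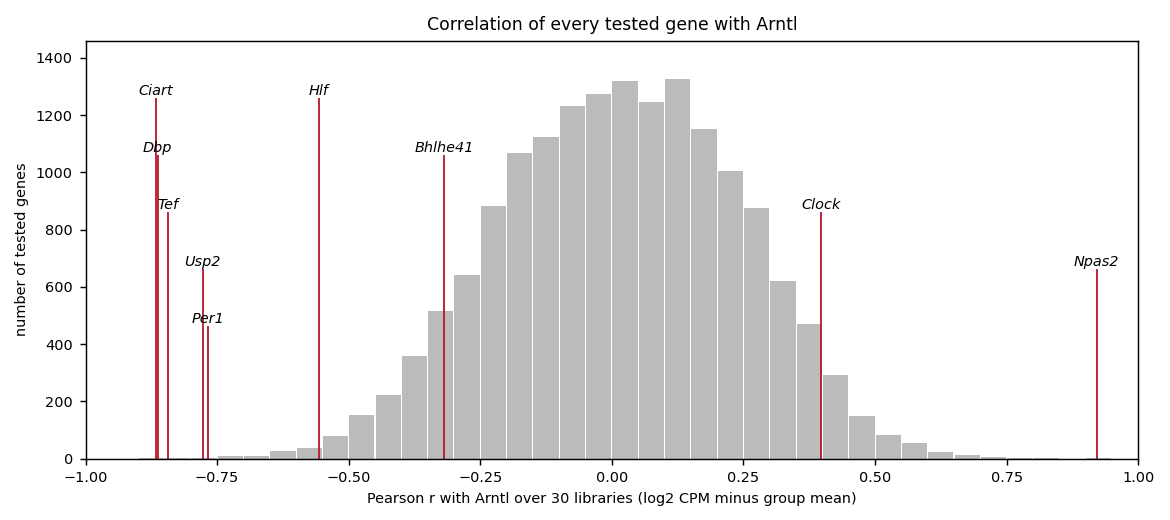
Number of tested genes (vertical axis) by their Pearson r with Arntl over 30 libraries after subtraction of group means (horizontal axis), with red lines at the 9 other clock genes described (line heights only place the names). Npas2 stands at 0.921 and Ciart, Dbp, Tef, Usp2 and Per1 between -0.866 and -0.768, outside the bulk of the genes.

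The size of r changed little with the library left out, while the adjusted p lay near its threshold. Without female 15-week replicates 4 and 2, the farthest in *Arntl* once group means were subtracted, r was 0.875 for *Npas2*, -0.859 for *Ciart*, -0.840 for *Dbp* and -0.852 for *Tef*. Without the 4 libraries lowest in *Arntl*, an alternative chosen after seeing the data, r was 0.828 for *Npas2*, -0.858 for *Dbp*, -0.845 for *Tef* and -0.834 for *Ciart*, with adjusted permutation p of 0.867 for *Npas2* and 0.0542 for the other 3, so that none passed. On log2(TPM + 0.1), r was -0.409 for *Dbp*, -0.204 for *Tef* and -0.315 for *Ciart*, and these 3 did not pass. With TPM rescaled by library, also chosen after seeing the data, it was -0.87, -0.825 and -0.866, and all 3 passed. With 1 library left out at a time, *Npas2* missed the threshold in 16 of 30 cases and *Dbp*, *Tef* and *Ciart* in 9 of 30 each. The permutation p cannot fall below 1e-05 with 100000 exchanges, so the adjusted p also depends on how many genes reach that limit. A miss at 0.0542 therefore cannot tell a weaker relation from too few exchanges. Within the 10 vehicle libraries r was 0.88 for *Npas2*, -0.855 for *Ciart* and -0.793 for *Dbp*, and within the 20 AOM/DSS libraries it was 0.938, -0.871 and -0.895. For *Dbp* the 15 libraries of females gave -0.83 and the 15 of males -0.896. *Dbp* had a negative r in each of the 6 groups of 5, from -0.991 in males at 9 weeks to -0.862 in males at 15 weeks, while *Usp2* was at 0.203 in males at 15 weeks and negative in the other 5 groups. These values within subsets carry no test.

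Pairs among *Dbp*, *Tef*, *Ciart*, *Per1* and *Usp2* ran together closely, with r from 0.806 to 0.975. Pairs with *Hlf* or *Bhlhe41* did so less, with r from 0.264 (*Bhlhe41* and *Usp2*) to 0.666 (*Tef* and *Hlf*). *Dbp* and *Tef* had an r of 0.975 over the 30 libraries, *Tef* and *Ciart* 0.963, *Dbp* and *Ciart* 0.949, *Ciart* and *Usp2* 0.898, and *Ciart* and *Per1* 0.837. *Clock* had an r of 0.377 with *Npas2* and between -0.267 and 0.279 with the 7 outputs. The 539 bases of exon that *Dbp* shares with *Sphk2* on the opposite strand bear on its counts, since the strand setting of the counting is not given in the sources used here. *Sphk2* ran from 53.5 to 102 CPM and had an r of 0.348 with *Dbp*.

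**Figure D4:**
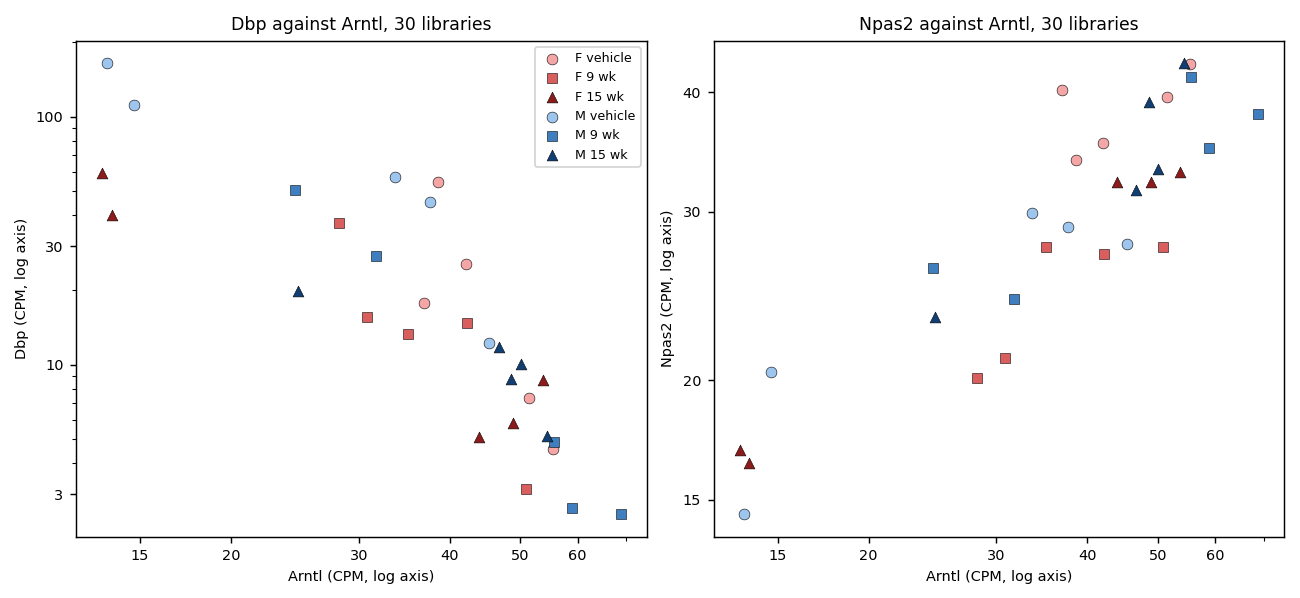
Dbp (left) and Npas2 (right) against Arntl in the 30 libraries, in CPM on log axes, with colour and shape for the 6 groups (F, females; M, males; wk, weeks of AOM/DSS). The library with the most Dbp, 164 CPM, had 13.5 CPM of Arntl and the library with the least Dbp, 2.50 CPM, had 68.8 CPM of Arntl, while Npas2 rose with Arntl.

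The spread between mice was wide for genes of this level. The SD of log2 CPM within groups was 1.47 for *Ciart*, 1.46 for *Dbp*, 0.93 for *Tef*, 0.82 for *Per1*, 0.66 for *Usp2* and 0.64 for *Arntl*, against a median of 0.33 over the tested genes. Among the 500 genes nearest in level, 1 had a larger SD than *Dbp*, 4 a larger SD than *Tef*, 13 than *Ciart* and 16 than *Arntl*, while 70 had a larger SD than *Npas2* and 72 than *Clock*. Differences between the 6 groups took 31.1% of the variance of *Dbp*, 32.7% of that of *Tef*, 29.0% of that of *Ciart* and 22.4% of that of *Arntl*, and the rest lay between mice of a group.

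Some other clock genes were among those nearest to *Arntl*. The highest r with *Arntl* outside the 10 genes belonged to *St5* (0.804), *Leo1* (0.75), a subunit of the PAF1 complex, *Nfil3* (0.745), whose product represses through D-boxes, *Mkks* (0.745) and *Cry1* (0.708), a late repressor of the activators. The lowest belonged to *0610005C13Rik* (-0.782), *Per3* (-0.748), *Spint1* (-0.741), a protease inhibitor of epithelium, *Blnk* (-0.738) and *Myo1a* (-0.735), a myosin of the brush border. *St5*, *Leo1*, *Nfil3* and *Cry1* passed the adjusted permutation threshold (0.0271 for *St5* and 0.0361 for the others), *Mkks* did not (0.141), and none of the 5 lowest did (0.0581 to 0.173). *Nr1d1*, which encodes REV-ERB alpha, passed too (r = -0.719, adjusted permutation p = 0.0488), while *Per2* (r = -0.603), *Cry2* (r = -0.614) and *Arntl2* (r = 0.054) did not.

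In males at 15 weeks of AOM/DSS the outputs were lower than in vehicle males. *Dbp* averaged 11.2 CPM against 77.8 CPM in vehicle males and fell by 2.80 on the log2 scale (SE 0.88, adjusted p = 0.0327), to 0.144 of the vehicle level. *Tef* fell by 1.82 (SE 0.56, adjusted p = 0.0296) and *Ciart* by 2.99 (SE 0.93, adjusted p = 0.0314). In 4 of the 5 treated males *Dbp* and *Ciart* lay below the lowest vehicle male, and 3 did for *Tef*, but in each case the groups overlapped. Thus 3 of the 10 genes were called, all lower, at an adjusted p under 0.05, a change beyond 0.4 on the log2 scale and a mean of at least 1 FPKM, against 8.92% of all tested genes. The tests are those of edgeR's quasi-likelihood model with Benjamini-Hochberg adjustment over 16261 genes.

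The other outputs had estimates in the same direction in these males. *Hlf* (log2 fold change -3.34, adjusted p = 0.0258) and *Bhlhe41* (log2 fold change -2.44, adjusted p = 0.0337) passed the p threshold but not the FPKM minimum. *Per1* (log2 fold change -1.45, adjusted p = 0.0538) and *Usp2* (log2 fold change -1.16, adjusted p = 0.052) missed it, and without male vehicle replicate 1 *Per1* was at -0.73 (adjusted p = 0.351). The activators had estimates of 0.63 for *Arntl* (SE 0.37, adjusted p = 0.24), 0.49 for *Npas2* (SE 0.21, adjusted p = 0.118) and -0.17 for *Clock* (SE 0.20, adjusted p = 0.6). All 7 outputs were thus below 0 and 2 of the 3 activators above 0, without a call among the activators. The outputs were measured in the same mice and ran together to differing degrees (r of 0.264 to 0.975 between pairs). Their shared sign is therefore not 7 separate observations. Without male vehicle replicate 1, *Hlf* (log2 fold change -1.71, adjusted p = 0.249) and *Bhlhe41* (log2 fold change -1.43, adjusted p = 0.236) missed the p threshold.

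These 3 calls depended on single mice. Without male vehicle replicate 1, the library with 5320 CPM of smooth muscle markers, *Dbp* (log2 fold change -2.33, adjusted p = 0.11), *Tef* (-1.46, adjusted p = 0.116) and *Ciart* (-2.39, adjusted p = 0.118) were no longer called. Without male vehicle replicate 3, with 33.7 CPM of those markers, the adjusted p were 0.0556, 0.0568 and 0.0583. All 3 calls were also lost without male 15-week replicate 1, 2 or 4 (adjusted p from 0.0503 to 0.0798). Without replicate 3 *Dbp* and *Ciart* were lost (0.0548 and 0.0511) and without replicate 5 *Tef* was (0.0506). None was called with the mean level of smooth muscle markers as a covariate (*Dbp* -1.90, adjusted p = 0.313). With male vehicle replicate 4 or 5 or male 9-week replicate 5 left out, 5 genes were called, *Per1* and *Usp2* beside these 3, and the same 5 were called by DESeq2 on all libraries. In the fit of the compared libraries only, *Tef* (adjusted p = 0.0536) and *Ciart* (adjusted p = 0.0546) were lost and *Dbp* was called. Smooth muscle markers fell too in males at 15 weeks, 7 of 7 called, as did 5 of 6 fibroblast markers. Smooth muscle sums were 2.14 to 67.2 CPM (median 24.1) against 33.7 to 5320 CPM (median 77.8) in vehicle males. Fibroblast sums were 8.54 to 112 CPM against 77.7 to 977 CPM. Beyond the fit with the smooth muscle covariate, the part of these markers in the result was not tested. *Dbp* was at 111 CPM in vehicle replicate 3, whose smooth muscle sum was the lowest of the vehicle males. It was at 164 CPM in vehicle replicate 1, whose sum was the highest.

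In males at 9 weeks none of the 10 genes was called, against 7.31% of all tested genes. All 7 outputs had estimates below 0, though without male vehicle replicate 1 *Bhlhe41* was at 0.19 and *Per1* at -0.08, and with the smooth muscle covariate *Bhlhe41* was at 0.63. Among them were *Dbp* (log2 fold change -2.14, SE 0.85, adjusted p = 0.106), *Tef* (-1.56, SE 0.55, adjusted p = 0.0707) and *Ciart* (-1.92, SE 0.88, adjusted p = 0.168). *Hlf* had -3.55 (adjusted p = 0.0223) but stayed under the FPKM minimum, and its adjusted p was 0.211 once male vehicle replicate 1 was left out. *Arntl* had an estimate of 0.73 (SE 0.37, adjusted p = 0.212) and *Npas2* of 0.44 (SE 0.21, adjusted p = 0.188). At an unadjusted edgeR p under 0.05 there were 5 of the 10, 1 higher and 4 lower, against 25.4% of all genes, and DESeq2 called 0. Smooth muscle markers were called lower in this comparison as well, 7 of 7. Their sums had a median of 40.4 CPM against 77.8 CPM in vehicle males, whose replicate 1 was at 5320 CPM. The estimate for *Dbp* was -1.68 (adjusted p = 0.276) without male vehicle replicate 1. Without male 9-week replicate 5, the treated male with the most *Dbp*, *Dbp* and *Tef* were called, and without male vehicle replicate 4 *Tef* was. The 9-week and 15-week comparisons share the vehicle males, and the outputs share their mice, so the signs of the outputs are not separate observations.

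In females no output was called under treatment, and most estimates were small beside their SE. At 9 weeks *Dbp* averaged 16.8 CPM against 21.9 CPM in vehicle females (log2 fold change -0.39, SE 0.83, adjusted p = 0.872), and *Tef*, *Ciart* and *Per1* had estimates of -0.07, 0.05 and -0.09. *Bhlhe41* had an estimate of 1.5 (SE 0.74, adjusted p = 0.296), with 4 of 5 treated females above the highest vehicle female, and *Usp2* one of -0.65 (SE 0.40, adjusted p = 0.448). At 15 weeks *Dbp* averaged 23.8 CPM (log2 fold change 0.11, SE 0.82, adjusted p = 0.969), and the 7 outputs had a median estimate of 0.11. None of the 10 genes was called at 9 weeks, against 2.9% of all genes, or at 15 weeks, against 0.0984%. The female estimates of *Dbp*, *Tef*, *Ciart* and *Per1* changed sign at both times when single libraries were left out, so no direction is given for them.

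*Npas2* was the gene whose vehicle females overlapped neither group of treated females. It stood at 34.0 to 42.8 CPM in the 5 vehicle females, at 20.1 to 27.6 CPM in females at 9 weeks and at 16.4 to 33.0 CPM in females at 15 weeks. Its log2 fold change was -0.64 at 9 weeks (SE 0.21, adjusted p = 0.0913) and -0.55 at 15 weeks (SE 0.21, adjusted p = 0.358). It was the 1 gene of the 10 with an unadjusted edgeR p under 0.05 at each time, and DESeq2 called 0. Of all genes 17.2% had such a p at 9 weeks and 10.9% at 15 weeks. The share of all genes that separate these groups is not given here. In a fit of the compared libraries alone *Npas2* was called at 9 weeks. *Arntl* overlapped between these groups, with estimates of -0.26 and -0.37.

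Between the sexes in vehicle mice the estimates were large and none was called. Vehicle males averaged 77.8 CPM of *Dbp* against 21.9 CPM in vehicle females (log2 fold change 1.82, SE 0.84, adjusted p = 0.24), 172 against 67.2 CPM of *Tef* (1.35, SE 0.55, adjusted p = 0.18) and 20.2 against 4.26 CPM of *Ciart* (2.23, SE 0.89, adjusted p = 0.173). *Npas2* was lower in every vehicle male, 14.5 to 29.9 CPM, than in any vehicle female (log2 fold change -0.66, SE 0.21, adjusted p = 0.0971). The share of all genes that separate the vehicle sexes is not given here. All 7 outputs had estimates above 0, and *Arntl* one of -0.64. The outputs share the same mice, so their signs are not separate observations. With the smooth muscle covariate *Bhlhe41* turned to -0.16 and *Per1* went from 1.12 to 0.14 and *Dbp* to 1.04, and without male vehicle replicate 1 *Per1* was at 0.39 and *Dbp* at 1.35. None of the 10 genes was called, against 0.178% of all genes, while 7 had an unadjusted edgeR p under 0.05, 6 higher and 1 lower in males, against 18.7% of all genes, and DESeq2 called 0. Of the smooth muscle markers 6 of 7 were called higher in vehicle males. Their sums had a median of 77.8 CPM in males, with 5320 CPM in replicate 1, and of 7.16 CPM in females. Beyond the fit with the covariate, the part of these markers in these estimates was not tested. Without female vehicle replicate 1, *Ciart* and *Npas2* were called.

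**Figure D5:**
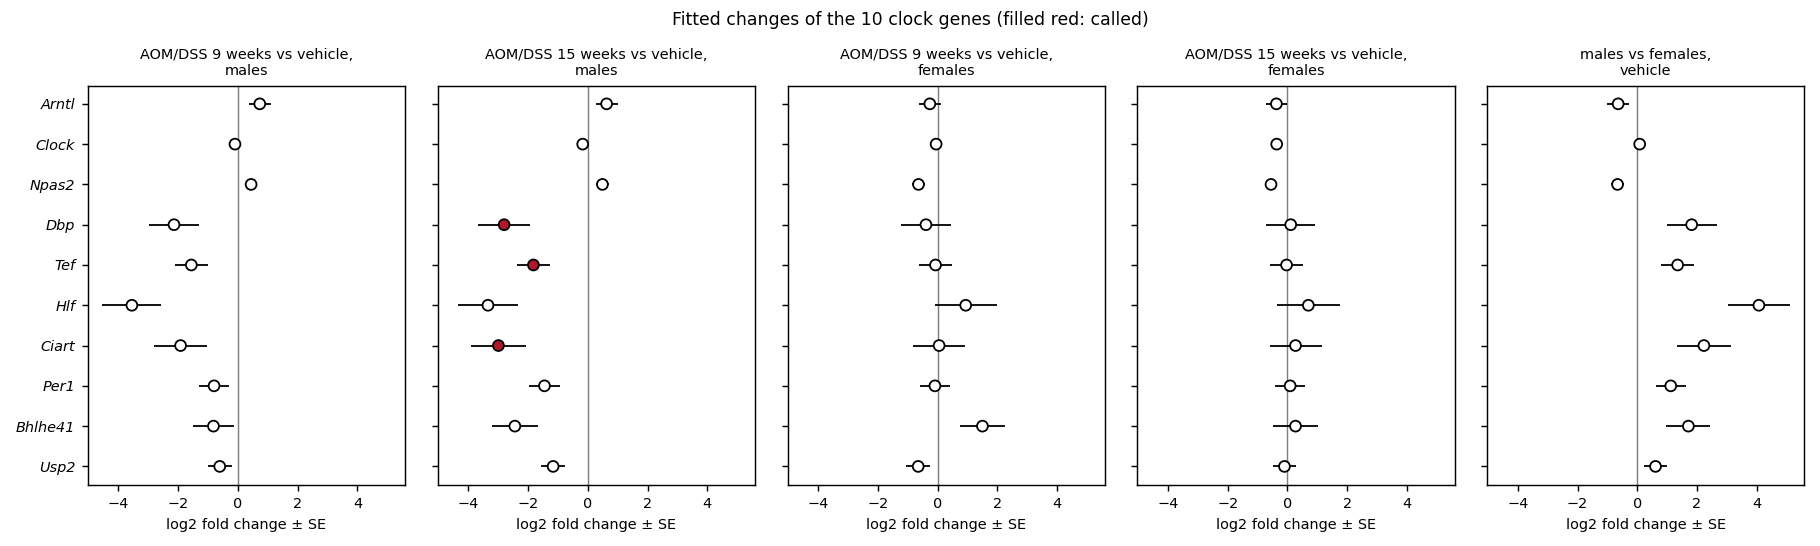
Fitted log2 fold change with its SE (horizontal axis) for the 10 genes (vertical axis) in the 4 comparisons of AOM/DSS with vehicle and between vehicle males and females, with the called genes filled in red. The calls are Dbp, Tef and Ciart in males at 15 weeks. All 7 outputs lay below 0 in treated against vehicle males and above 0 in vehicle males against vehicle females. These comparisons share the vehicle males, and the outputs share their mice, so the signs are not separate observations. Bhlhe41 changed sign with the smooth muscle covariate in males at 9 weeks (0.63) and between vehicle sexes (-0.16).

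The difference between the male and female responses was tested as an interaction. No gene of the 10, and 0% of all tested genes, passed at 9 or at 15 weeks, with 3 and 7 of the 10 genes at an unadjusted edgeR p under 0.05, against 7.41% and 7.66% of all genes, and 0 called by DESeq2. For *Dbp* the male response minus the female was -1.75 at 9 weeks (SE 1.17, adjusted p = 0.75) and -2.91 at 15 weeks (SE 1.19, adjusted p = 0.545). For *Npas2* it was 1.08 (SE 0.30, adjusted p = 0.503) and 1.04 (SE 0.30, adjusted p = 0.43), with unadjusted edgeR p of 0.00125 and 0.00176. These contrasts contain the vehicle difference between the sexes with its sign turned.

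Between treated males and females no gene of the 10 was called either. At 9 weeks *Dbp* averaged 17.6 CPM in males and 16.8 CPM in females (log2 fold change 0.07, SE 0.82). Of the 10 genes 0 were called by edgeR or DESeq2, against 0.0492% of all genes called by edgeR. At an unadjusted edgeR p under 0.05 there were 0 of the 10, against 3.87% of all genes. At 15 weeks *Dbp* averaged 11.2 and 23.8 CPM (log2 fold change -1.09, SE 0.84, adjusted p = 0.67), again with 0 by each of these measures. Of all genes edgeR called 0.184%, and 12.4% had an unadjusted edgeR p under 0.05. Between 15 and 9 weeks edgeR and DESeq2 called no gene of the 10 in males or in females, and edgeR called 0% of all genes in each sex. The estimates for *Dbp* were -0.65 (SE 0.83) in males and 0.50 (SE 0.83) in females. *Bhlhe41* in males was the 1 gene with an unadjusted edgeR p under 0.05 in either sex (0.0452, adjusted p = 0.36). Of all genes 13.4% in males and 12.6% in females had such a p.

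Other genes of the loop were called in males. These lists were written with earlier results of these data known. Of 11 genes of the feedback and nuclear receptor loop, 3 rose and 3 fell in males at 9 weeks, with a median log2 fold change of -0.52 against -0.033 over all tested genes, and 1 rose and 4 fell at 15 weeks, with a median of -0.91 against -0.039. The shares of all genes called were 7.31% and 8.92%. The smooth muscle markers, 7 of 7 called lower, moved in the same male comparisons, where male vehicle replicate 1 held 5320 CPM of them. The part of these markers in these changes was not tested. *Cry1* rose at 9 weeks (log2 fold change 1.1, SE 0.28, adjusted p = 0.0139) and at 15 weeks (0.91, SE 0.28, adjusted p = 0.0323). *Nfil3* rose at 9 weeks (2.12, SE 0.49, adjusted p = 0.00619), and so did *Arntl2*, a relative of *Arntl* (1.35, SE 0.31, adjusted p = 0.00576). *Nr1d2*, the second REV-ERB gene, fell by 1.1 at both times (adjusted p = 0.0177 and 0.0154), and *Per3* by 1.54 (adjusted p = 0.045) and 2.21 (adjusted p = 0.00658). *Nr1d1* fell by 1.48 at 9 weeks (adjusted p = 0.0126). *Cry2* (-0.80, adjusted p = 0.049) passed at 15 weeks only, which is not a test of a difference between the times.

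Of 6 clock-controlled output genes, *Nampt*, the NAD salvage enzyme, rose by 0.61 (adjusted p = 0.00536) and *Alas1*, the first enzyme of heme synthesis, by 0.91 (adjusted p = 0.0178) in males at 9 weeks. *Wee1*, a kinase that holds back mitosis, fell by 0.70 at 9 weeks (adjusted p = 0.0379) and by 0.65 at 15 weeks (adjusted p = 0.0436), when *Alas1* rose by 0.79 (adjusted p = 0.0315). Of 8 genes of clock kinases and protein turnover edgeR called 0 in males, with 4 at an unadjusted p under 0.05 at 9 weeks and 3 at 15 weeks, and of 5 glucocorticoid-responsive genes it called 0, with 2 and 1. Of all genes 25.4% and 31.4% had such a p. In females, at both times, and between vehicle males and females edgeR called 0 genes of the 4 lists. Of the 11 loop genes 2 had an unadjusted p under 0.05 in females at each time and 6 between vehicle males and females. Such a p was held by 17.2% and 10.9% of all genes in females at 9 and 15 weeks, and by 18.7% between vehicle sexes. DESeq2 and the fits with 1 library left out were not read for these lists. *Arntl2* in females at 9 weeks passed the p threshold (log2 fold change 1.47, SE 0.31, adjusted p = 0.0058) under the FPKM minimum.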

How the data were processed

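RNA from scraped colon epithelium of 30 mice was sequenced by the authors as stranded poly(A)-selected libraries, and groups were taken from the labels. Per the labels and the paper's methods, the authors demultiplexed with bcl2fastq 2.20.0.422, trimmed with Trim Galore, aligned to mm10 (GRCm38) with STAR and counted genes with featureCounts. The deposited counts are raw. The deposited FPKM and TPM values are the authors' StringTie estimates per library, used for the expression minimum and for levels between genes.

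The counts were fitted with edgeR 4.0.16 in R 4.3.3: filterByExpr (16261 of 46078 genes kept), TMM factors from 0.832 to 1.1, 1 quasi-likelihood model over 30 libraries with 1 coefficient per group, 11 comparisons and Benjamini-Hochberg adjustment over all tested genes. A gene was called at an adjusted p under 0.05, a log2 fold change beyond 0.4 and a mean of at least 1 FPKM in a compared group. SE is the absolute log2 fold change over the square root of F. DESeq2 1.42.0 was an alternative. Correlations used log2 CPM (prior count 2) minus group means, tested by 100000 exchanges within groups. Both steps were tested on simulated data. The simulated counts had the same spread for all genes and the correlation test used normal values. These simulations therefore do not cover genes as variable as *Dbp* and *Ciart* or as low as *Hlf* and *Bhlhe41*. The 60 pairs of libraries within groups differed by more than sampling noise (chi-square per degree of freedom 13.7 or more). Total counts ran from 9265804 to 30806392, duplicate reads cannot be told from separate molecules, and all values cover 1 library per mouse.

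The genes, gene lists and comparisons were chosen with earlier results of these data known. Genes named beyond the 10 are those of the clock lists called in a comparison with vehicle or between vehicle males and females, and the 5 highest and 5 lowest in r with *Arntl*. *Sphk2*, *mt-Nd4l* and the smooth muscle markers were named after values were seen. The values of 1 gene of the clock lists are not reported here.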

Additional observations from a re-analysis of the deposited data

Results flagged for a closer look

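In each group of 5, a library was singled out when its gap to the nearest other exceeded 0.71 of the group's range, which chance does in about 1 group in 20. Of 66 such groups, for the 10 genes and the total counts, 3 held such a library. *Arntl* stood at 24.7 CPM in male AOM/DSS 15 weeks replicate 5, where the next lowest male of that group was at 46.7 CPM and the group median was 48.6 CPM. That library also had the most *Dbp* (19.8 CPM) of its group. *Per1* stood at 45.4 CPM in female AOM/DSS 9 weeks replicate 2, where the next highest was at 19.9 CPM, and that library had the highest *Dbp* of its group, 37.3 CPM, and the lowest *Arntl*, 28.2 CPM. Female vehicle replicate 5 had 9265804 counts on genes, against 23483517 in the next lowest of its group. In that library *Arntl* (36.9 CPM) was the lowest of the vehicle females, the next being at 38.6 CPM, and *Dbp* (17.8 CPM) lay between the others.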

How the results depend on the processing

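The count of called genes in males at 15 weeks, 3 of the 10, was 5 with DESeq2, 1 with the compared libraries only (*Dbp*), 5 with no FPKM minimum, 0 with the smooth muscle covariate, and 0 to 5 with 1 library left out. In males at 9 weeks 1 gene, *Hlf*, was called with no FPKM minimum, and 0 to 2 with 1 library left out. In females at 9 weeks 1 gene, *Npas2*, was called with the compared libraries only. Between vehicle sexes 0 to 2 were called with 1 library left out. The counts of the other comparisons were 0 under every alternative run. With the replicate block 0 genes were called in males at 15 weeks (*Dbp* -2.73, adjusted p = 0.0543) and *Tef* in females at 15 weeks turned to 0.2. The labels do not say whether the replicate numbers pair mice. Of 75 pairs of libraries with the same number 12 had a correlation over 0.1, and 4 of 30 libraries correlated best with their own number. These values cannot decide whether mice with the same number were handled together.

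With log2(TPM + 0.1) the correlation with *Arntl* was -0.409 for *Dbp*, -0.204 for *Tef* and -0.315 for *Ciart*, past no threshold, 0.685 for *Clock*, past it, and 0.115 for *Bhlhe41*, with its sign turned. With each library's TPM rescaled to CPM, an alternative chosen after seeing the data, the values were 0.916 for *Npas2*, -0.87 for *Dbp*, -0.825 for *Tef* and -0.866 for *Ciart*, and all 4 passed. Without subtraction of group means *Per1* (-0.745) and *Usp2* (-0.706) passed. Without the 4 libraries lowest in *Arntl* the values were 0.828 for *Npas2*, -0.858 for *Dbp*, -0.845 for *Tef* and -0.834 for *Ciart*, and none passed. With 1 library left out r ran from 0.908 to 0.931 for *Npas2*, from -0.882 to -0.847 for *Dbp*, from -0.867 to -0.822 for *Tef* and from -0.89 to -0.842 for *Ciart*, with adjusted p up to 0.108 for *Npas2* and 0.0542 for the others. An adjusted p of 0.0542 depends in part on how many genes reach 1e-05, the smallest permutation p that 100000 exchanges allow.

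The smooth muscle covariate turned the sign of *Bhlhe41* in males at 9 weeks (0.63) and between vehicle sexes (-0.16), of *Ciart* in females at 9 weeks (-0.32) and of *Tef* in females at 15 weeks (0.07). Leaving out 1 library turned these log2 fold changes. In males *Clock* ran from -0.16 to 0.05 and *Bhlhe41* from -1.23 to 0.19 at 9 weeks, and *Clock* from -0.27 to 0.0 at 15 weeks. In females at 9 weeks *Clock* ran from -0.14 to 0.06, *Dbp* from -0.91 to 0.29, *Tef* from -0.3 to 0.31, *Ciart* from -0.44 to 0.93 and *Per1* from -0.5 to 0.14. In females at 15 weeks *Dbp* ran from -0.57 to 0.79, *Tef* from -0.52 to 0.36, *Ciart* from -0.82 to 1.15, *Per1* from -0.22 to 0.33, *Bhlhe41* from -0.07 to 1.03 and *Usp2* from -0.48 to 0.16. Between vehicle sexes *Clock* ran from -0.07 to 0.17. The cause of these changes was not tested. Counts of 0 to 366 for *Hlf* and 0 to 110 for *Bhlhe41* limit what can be said of either.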
